A study of Mus musculus with 18 samples.

Results

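The proteasome genes of sorted mouse CD8 T cells were examined as a family. A gene was a member when it was protein-coding and its symbol began with Psma, Psmb, Psmc, Psmd, Psme, Psmf or Psmg and a number, and 50 of the 23414 genes in the deposited table met this rule. Spleen cells of P14 mice, whose transgenic T cell receptor sees the gp33 peptide of lymphocytic choriomeningitis virus, were cultured for 24 h, and bulk polyA RNA of the sorted CD8 T cells was sequenced. There were 3 libraries in each of 6 groups. In each of 3 conditions, 3 libraries came from P14 mice labelled as TrIP knockouts restricted to CD8 cells (KO) and 3 from wild-type P14 mice (WT). All cultures, including those without peptide, received the cytokines IL-2 (50 U/ml) and IL-12 (2 ng/ml). The first condition added no peptide, the second added the high-affinity gp33 peptide at 100 ng/ml, and the third added that same gp33 dose together with IC87114 (10 µM), which blocks the delta isoform of PI3K. The labels do not name the Cre driver, the age of the mice or whether replicates were separate animals, so p-values measure the spread between these libraries, which may be technical.

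The proteasome is the protease that degrades ubiquitin-tagged proteins. Its 20S core is a barrel of alpha rings (Psma genes) around beta rings (Psmb genes), and Psmb5, Psmb6 and Psmb7 encode the constitutive catalytic beta subunits. Interferon gamma induces Psmb8, Psmb9 and Psmb10 (LMP7, LMP2 and MECL-1), which take the places of Psmb5, Psmb6 and Psmb7 in the immunoproteasome and shift the cleavage of peptides for MHC class I. The 19S cap recognises and unfolds substrates with ATPases (Psmc genes) and non-ATPase subunits (Psmd genes). The PA28 cap, encoded by Psme1 and Psme2, is likewise interferon-inducible, while Psme3 encodes a nuclear relative. Lymphocytes carry much of their proteasome in the immunoproteasome form.

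Values are the authors' normalized values, read as log2 of a value plus 1 and converted back. A member was tested when its value was at least 1 in 3 or more libraries, which 45 of the 50 were. Fold changes are differences of log2(value + 1), each with its standard error (SE) from limma. Over all 10257 genes tested, a gene is called higher or lower where its p, adjusted by Benjamini-Hochberg, is under 0.05. Apart from members and their near-identical copies, levels of different genes are not compared, because no source used here says whether the values were divided by gene length.

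Some facts of the whole table touch every result. Pik3ip1, which encodes TrIP and is lost by the KO label, was higher in KO-labelled libraries in every condition, at 74.6 to 78.9 without peptide against 28.5 to 33.4 in WT. It was at 1.53 to 1.67 with gp33 in KO-labelled libraries and 0.655 to 0.863 in WT, and with the inhibitor at 2.18 to 2.58 and 0.616 to 0.656. Each direction between genotypes therefore goes by the label, and would turn round if the labels had been swapped. Replicate 2 of the WT group with gp33 and inhibitor stands apart. Its mean correlation with its group was 0.961, against 0.978 and 0.979 for the other libraries of that group and 0.982 to 0.996 in the other groups. Of the 50 members, 46 were above the mean of the other 2 libraries of its group there, such as the 20S alpha gene Psma7 at 170.0 against 70.6 and 74.1. Psma8, Psmd7, Psme2 and Psme2b were below it, with Psme2 at 9.22 against 16.2 and 19.3. Since all groups share a single estimate of the spread, results are also given without it where that changes them. The sequencing depth is unknown.

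The named division of the family was 31 constitutive 20S and 19S subunits, of which 29 were tested, the 5 interferon-inducible genes Psmb8, Psmb9, Psmb10, Psme1 and Psme2, and other members. Psmb7, Psmd1, Psmd9, Psme4 and Psma8 were too low to test. Psmb7, the catalytic subunit that Psmb10 replaces, ranged from 0.23 to 1.98 and Psmd1, a scaffold subunit of the 19S base, from 0.233 to 1.84. Both upper ends came from the WT inhibitor library that stands apart. In the other libraries Psmb7 did not exceed 0.944 and Psmd1 did not exceed 0.845. Psmd9, an assembly chaperone, ranged from 0.275 to 0.818, Psme4, the PA200 activator, from 0.0833 to 0.174, and the testis alpha subunit Psma8 did not exceed 0.123. Of the other members, Psmc3ip encodes a homologous-pairing protein and Psme3ip1 a binding partner of the Psme3 protein, so both match by name only.

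For 4 of the genes that the results turn on, 30 bases around a motif near the RefSeq start site are shown to show what such a pattern looks like in members of the interferon-inducible and of the constitutive class. All are 5′ to 3′ on the strand of the gene in GRCm38.p6, with the matched motif in capitals. The first is chr17:34198088-34198117 (plus strand) before Psmb8, with an interferon gamma activated site letter pattern (TTCNNNGAA) at positions -97 to -89. The second is chr14:55578493-55578522 (plus strand) at Psme1, with an interferon-stimulated response element pattern (GAAA, any 2 bases, GAAA, here on the reverse strand) at positions 10 to 19. The third and the fourth are chr14:54618023-54618052 (minus strand) at Psmb5 and chr11:70525338-70525367 (plus strand) at Psmb6, with the antioxidant response element pattern (TGACNNNGC) at -47 to -39 and at -9 to -1.
Psmb8: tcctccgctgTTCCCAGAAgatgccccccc
Psme1: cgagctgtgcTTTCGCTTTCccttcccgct
Psmb5: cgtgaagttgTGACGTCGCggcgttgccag
Psmb6: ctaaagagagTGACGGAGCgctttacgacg
Both strands were searched from 250 bases before to 50 after each start. The interferon-stimulated pattern was in 3.44% of 32851 promoters and in 5 of the 46 member promoters, the activated-site pattern in 8.3% and in 3, and the antioxidant pattern in 12.4% and in 6. Those 46 promoters belong to 42 members. Matches to the interferon-stimulated and the activated-site pattern stood in both classes. The antioxidant pattern was in Psmb5, Psmb6, Psmc6, Psmd12, Psmd9 and Psme4, none of them interferon-inducible members. Psmb9, Psmb10 and Psme2 had no match to any of the 3, while the interferon-stimulated pattern was also in Psmb3, Psmd4, Psmd9 and Psmg4 and the activated-site pattern in Psmd2 and Psmg1. Each match is a description of letters in this window, not a shown binding site.

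Without peptide, the interferon-inducible members were higher in KO-labelled libraries than in WT, and no constitutive subunit was called. All 5 of Psmb8, Psmb9, Psmb10, Psme1 and Psme2 were called higher, with a median log2 fold change of 0.82, while 0 of the 29 constitutive subunits were called by limma in either direction and their median was 0.14. At an unadjusted p under 0.05, 1 of the 29 was higher. Over the 45 members tested, 7 were called higher and 0 lower, against 5.69% higher and 7.23% lower of all genes tested. The median over members was 0.18 and over all genes 0.01. At the constitutive subunits the single-gene fold changes ran from -0.14 to 0.47. Without the WT inhibitor library that stands apart, 12 members were called, all higher, 4 of them constitutive. Of all genes, 8.94% were called higher and 11.5% lower in that fit. In bulk RNA, fewer or more cells of a type and less or more RNA per cell cannot be told apart.

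Psmb8 (ENSMUSG00000024338) was at 364, 358 and 335 in KO-labelled libraries, against 214, 230.4 and 226 in WT. The 2 groups did not overlap, and the log2 fold change was 0.66 (SE 0.12, adjusted p = 0.00137). Psmb9 (ENSMUSG00000096727) was at 88.3, 81.6 and 77.3 in KO-labelled libraries, against 38.6, 34 and 31.5 in WT. This was the largest difference of any member, at 1.23 on the log2 scale (SE 0.14, adjusted p = 3.93e-05). Psmb10 (ENSMUSG00000031897) was at 89.4, 87.7 and 79.3 in KO-labelled libraries, against 46.4, 52.4 and 45.5 in WT. Its log2 fold change was 0.82 (SE 0.23, adjusted p = 0.0284), and this call ended when any of 4 of the 6 libraries was left out, KO replicates 1 and 2 and WT replicates 1 and 3 (adjusted p of 0.0748 to 0.0835).

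Both PA28 genes moved with the catalytic ones. Psme1 (ENSMUSG00000022216) was at 89.6, 75.3 and 71.1 in KO-labelled libraries, against 47.5, 44.2 and 46.9 in WT, a log2 fold change of 0.75 (SE 0.13, adjusted p = 0.000922). Psme2 (ENSMUSG00000079197) was at 24.5, 17.8 and 15.5 in KO-labelled libraries, against 8.74, 8.95 and 9.63 in WT, a log2 fold change of 0.98 (SE 0.22, adjusted p = 0.00791). In both genes every KO-labelled library lay above every WT library. Psme2b (ENSMUSG00000078153), a retrocopy of Psme2, was at 3627, 3594 and 3486 in KO-labelled libraries, against 2311, 2237 and 2236 in WT, higher by 0.66 on the log2 scale (SE 0.10, adjusted p = 0.000424). The 7th call was Psmg3, an assembly chaperone of the 20S core, at 0.33 (SE 0.09, adjusted p = 0.0245), which ended without any of 3 libraries.

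The constitutive partners of the catalytic subunits gave values that overlapped between genotypes. Psmb5 (ENSMUSG00000022193) was at 37.6, 32.6 and 27.3 in KO-labelled libraries, against 28.2, 30.8 and 25.3 in WT, a log2 difference of 0.20 (SE 0.14, adjusted p = 0.424). Psmb6 (ENSMUSG00000018286) was at 74.8, 65.3 and 60.1 in KO-labelled libraries, against 52.3, 66.0 and 55.5 in WT (0.20, SE 0.12, adjusted p = 0.33). The ratio of Psmb9 to Psmb6 within a library was therefore higher by 1.05 ± 0.06 on the log2 scale (SD, n = 3) in KO-labelled libraries than in WT, whose own SD was 0.27. That of Psmb8 to Psmb5 was higher by 0.46 ± 0.17 (SD, n = 3), with an SD of 0.14 in WT.

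**Figure D1:**
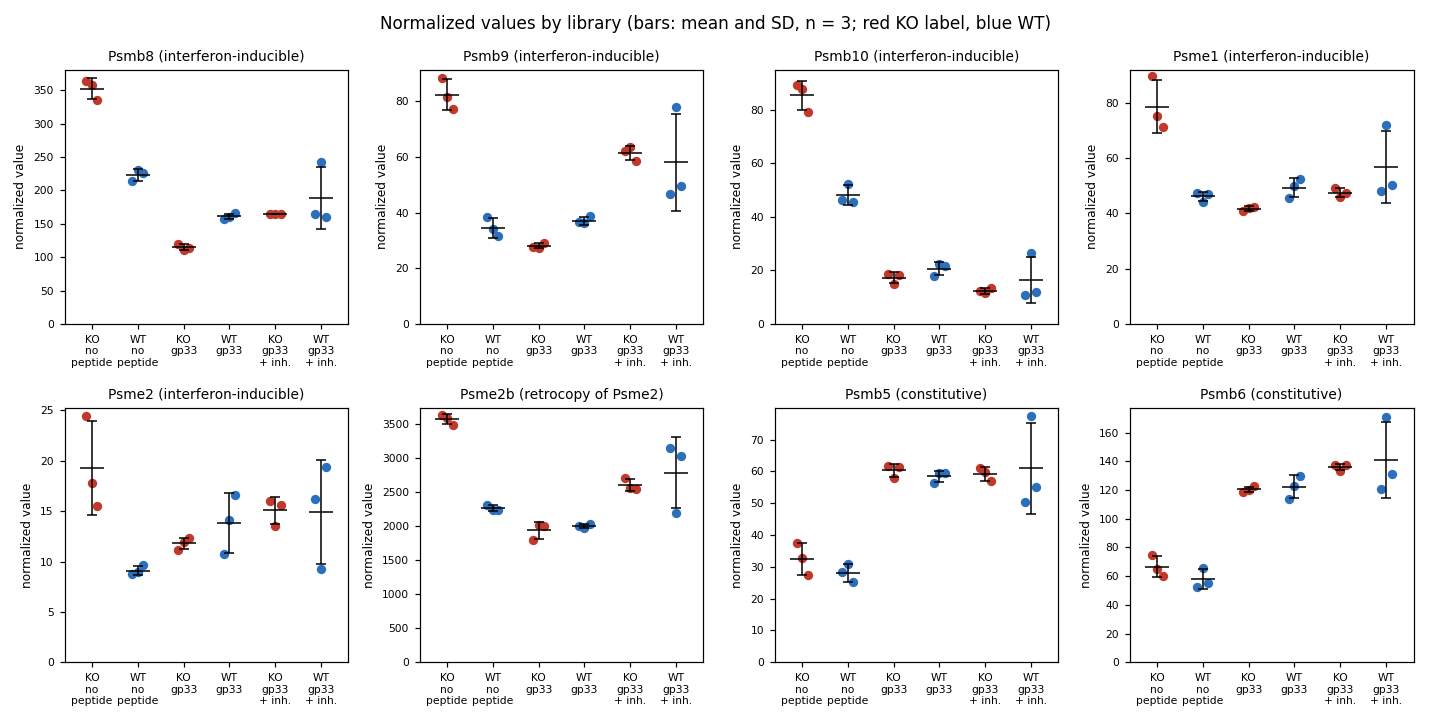
Normalized values (vertical axes, linear from 0) of the 5 interferon-inducible genes, the Psme2 retrocopy Psme2b and the constitutive Psmb5 and Psmb6 in all 18 libraries; points are libraries (red labelled KO, blue WT) and bars are the mean and SD of 3. Psmb9 lies between 77.3 and 88.3 without peptide in KO-labelled libraries and between 31.5 and 38.6 in WT, and replicate 2 of the WT group with inhibitor is far from its group in all 8 genes.

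Several genes that act with the immunoproteasome were also higher in KO-labelled libraries without peptide. Of 13 genes of MHC class I peptide loading, 8 were called higher and 0 lower, with a median log2 fold change of 0.42. Tap1 and Tap2, the peptide transporter, differed by 0.96 and 0.60 (SE 0.08 for Tap1), and Tapbp, which bridges the transporter to class I, by 0.83. Of 9 transcription factors known to act on proteasome or immunoproteasome genes, 4 were called higher and 0 lower. Irf1, which drives immunoproteasome genes in response to interferon gamma, was at 81.8 to 95.3 in KO-labelled libraries and 35.8 to 52.8 in WT (log2 fold change 1.00). Of 16 genes of proteasome-associated proteins outside the naming rule, 0 were called higher and 2 lower (Ngly1 and Zfand2a, each at -0.30). Over all genes tested, 5.69% were called higher and 7.23% lower. The counts of these 16 are too small to be read as a difference from those shares.

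Markers of other cells differed between the same groups. The summed value of 11 myeloid markers was 76.8 to 163 in KO-labelled libraries and 3.34 to 31.7 in WT, with 3 of 6 tested called higher (S100a8, S100a9 and Mpeg1), while Itgam, Csf1r, Itgax and Flt3 did not exceed 0.104 in any library. The sum of 4 NK markers was 12.2 to 14.6 in KO-labelled libraries and 2.39 to 3.59 in WT, with both tested genes, Fcer1g and Tyrobp, called higher. These genes made up most of that sum in KO-labelled libraries, with Fcer1g at 5.21 to 7.29 and Tyrobp at 5.73 to 6.92. Whether NK cells carry this difference was not tested. The other NK markers were too low to test. Ncr1, at 0 in 13 of the 18 libraries, was at 0.152 to 1.00 in KO-labelled libraries without peptide and 0 in WT. Klrb1c overlapped, at 0.0765 to 0.571 in KO-labelled libraries and 0 to 0.764 in WT. The sum of 4 erythroid markers was 3.52 to 10.3 in KO-labelled libraries and 0.224 to 0.626 in WT, with 2 of 2 tested called higher. Hbb-bt, too low to test and at 0 in 7 of the 18 libraries, was at 0.222 to 0.941 and 0 to 0.113 in these groups. B cell markers went the other way, with 7 of 8 tested called lower and sums of 403 to 626 in KO-labelled libraries and 530 to 726 in WT, and Pax5 never above 0.0839. The CD8 T cell markers summed to 673 to 703 in KO-labelled libraries and 656 to 707 in WT, with 0 of 6 called, and CD4 T cell markers to at most 1.67. The part of these cells in the proteasome results was not tested.

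Stimulation with gp33 raised most constitutive subunits in both genotypes. In KO-labelled libraries, 21 of 29 constitutive subunits were called higher with gp33 than without peptide and 0 lower, with a median log2 fold change of 0.67. In WT, 27 of 29 were called higher and 0 lower, with a median of 1.07. Over the 45 members, 26 were called higher and 7 lower in KO-labelled libraries, against 41.1% higher and 27.3% lower of all genes tested, and 34 higher and 3 lower in WT, against 42.1% and 31.6%. The medians over all genes were 0.20 in KO-labelled libraries and 0.19 in WT, and quantile normalization moved them to 0.04 and 0.03. Under that scaling 18 constitutive subunits were higher and 1 lower in KO-labelled libraries, and 26 higher and 0 lower in WT. Without the WT inhibitor library that stands apart, 26 constitutive subunits were higher in KO-labelled libraries and 28 in WT, with 0 lower in either. Of all genes, 45.6% were called higher and 29.4% lower in KO-labelled libraries in that fit, and 46.3% and 33.5% in WT. The make-up of the libraries moved with gp33 too. Mitochondrial genes held 2.71% to 3.55% of the summed values with gp33 and 5.74% to 6.68% without peptide, and processed pseudogenes 63.7% to 66.8% with gp33 and 54.0% to 57.6% without peptide. Their part in the result was not tested.

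The alpha ring and the cap shared this response. All 7 alpha genes tested were called higher in WT (0.54 to 1.38) and 5 of 7 in KO-labelled libraries, where Psma2 at 0.19 and Psma7 at 0.38 were not called. Of the 6 constitutive beta genes tested, 3 were called in KO-labelled libraries, 5 without the WT inhibitor library that stands apart, and 6 in WT in either fit. Among the 19S ATPases, which unfold substrates, 4 of 6 were called higher in KO-labelled libraries and 5 of 6 in WT, Psmc2 at 0.57 in KO-labelled libraries and 0.62 in WT being called in both only without the WT inhibitor library that stands apart. Of the 19S non-ATPase genes, 9 of 10 were called higher in each genotype. The exception was Psmd4, a ubiquitin receptor, at -0.12 in KO-labelled libraries and 0.12 in WT.

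The catalytic partners Psmb5 and Psmb6 rose with gp33 in both genotypes. Psmb5 was at 61.7, 57.9 and 61.4 with gp33 in KO-labelled libraries and at 56.5, 59.4 and 59.5 in WT. The log2 fold changes over no peptide were 0.88 and 1.03 (SE 0.14, adjusted p = 4.82e-05 and 8.52e-06). Psmb6 was at 119, 119.7 and 123 in KO-labelled libraries and at 114, 123 and 130.0 in WT, with log2 fold changes of 0.85 and 1.07 (SE 0.12). Psmd7, a 19S lid subunit, was at 51.5, 42.8 and 48.1 with gp33 in KO-labelled libraries and 58.9, 60.7 and 59.4 in WT, against 19.6 to 23.4 and 19.2 to 20.7 without peptide. Its log2 fold change in WT, 1.53, was the largest of the constitutive class there. In KO-labelled libraries it was 1.09, and the largest was 1.18 at Psmd8, a subunit of the same lid.

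Activators, assembly factors and name-only members held the largest increases. Psme3, the nuclear PA28 gamma, was at 21.2, 19.2 and 20.1 with gp33 in KO-labelled libraries, against 8.33, 5.72 and 4.55 without peptide (log2 fold change 1.59, SE 0.14, adjusted p = 8.02e-08). In WT it was at 26.7, 26.3 and 24.3 with gp33, against 7.07, 7.3 and 7.01 without peptide (1.72, adjusted p = 2.68e-08). The groups with and without peptide did not overlap in either genotype. Psmg3 differed by 1.37 in KO-labelled libraries and 1.91 in WT, and Psmc3ip, the homologous-pairing protein, by 1.54 and 1.94. Psmg1, a 20S chaperone, was called higher in both (0.79 in KO-labelled libraries and 1.16 in WT). Its partner Psmg2 was at 0.32 in KO-labelled libraries, not called, and at 0.91 in WT, called. The difference between these responses was -0.58 (adjusted p = 0.114), and without the WT inhibitor library that stands apart it was called (adjusted p = 0.00116), as was the response in KO-labelled libraries (adjusted p = 0.00162). Psmf1, the PI31 inhibitor, and Psmd10, a 19S chaperone, were called in neither genotype, though Psmf1 was called higher in WT (0.16, adjusted p = 0.0187) without that library. Psmd5, another 19S chaperone, was at 0.29 in KO-labelled libraries, a call that ended under quantile normalization (adjusted p = 0.436) and without 1 library (0.0527), and at 0.17 in WT, not called. The difference between these Psmd5 responses was 0.12, not called.

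The 5 interferon-inducible genes did not share this rise. In KO-labelled libraries all 5 were called lower with gp33 than without peptide, with a median log2 fold change of -1.52. In WT 2 were called lower, 1 higher and 2 were not called, with a median of 0.09. The other members called lower were Psme2b and the chaperone Psmg4 in KO-labelled libraries and Psme3ip1 (-0.29) in WT. The fall in KO-labelled libraries was called for Psmb8, Psmb9, Psmb10 and Psme1 under each alternative tried. Under quantile normalization 4 of the 5 were called lower and 0 higher in WT, and the direction of Psmb9 and of Psme1 in WT turned from 0.10 and 0.09 to -0.33 and -0.39 (adjusted p = 0.0352 and 0.00483).

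Psmb10 had the largest decrease of any member. It was at 18.7, 15.1 and 18.2 with gp33 in KO-labelled libraries and 17.8, 22.3 and 21.8 in WT, all below every library without peptide of its genotype. The log2 fold changes were -2.24 and -1.18 (SE 0.23, adjusted p = 5.69e-07 and 0.000276). Psmb8 was at 119.9, 111 and 114 in KO-labelled libraries and 158, 159.7 and 166 in WT, with log2 fold changes of -1.61 and -0.47 (SE 0.12, adjusted p = 1.25e-08 and 0.00201). It thus fell in both genotypes as labelled. Psmb9 was at 27.7, 27.5 and 29.1 in KO-labelled libraries and 36.5, 36.1 and 38.7 in WT. Its log2 fold change was -1.52 in KO-labelled libraries (adjusted p = 2.85e-07) and 0.10 in WT (adjusted p = 0.544).

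The PA28 genes split in the same manner. Psme1 was at 40.8, 42.1 and 42.5 with gp33 in KO-labelled libraries and 45.6, 49.9 and 52.3 in WT, with log2 fold changes of -0.89 (adjusted p = 1.68e-05) and 0.09 (adjusted p = 0.532). Psme2 was at 11.2, 11.9 and 12.3 in KO-labelled libraries and 10.7, 14.2 and 16.6 in WT. Its log2 fold changes were -0.64 in KO-labelled libraries (adjusted p = 0.0179) and 0.53 in WT (adjusted p = 0.0392), calls of opposite direction. The Psme2 call in KO-labelled libraries ended without KO replicate 1 of the no-peptide or of the gp33 group (adjusted p up to 0.0901), and that in WT without any of 5 libraries (up to 0.153) and under quantile normalization (0.299). Its retrocopy Psme2b was at 1789, 2014 and 2002 in KO-labelled libraries and 2007, 1968 and 2033 in WT (log2 fold changes of -0.88, called, and -0.17, not called). Neither gene of this near-identical pair can be told from the other with certainty in short reads.

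**Figure D2:**
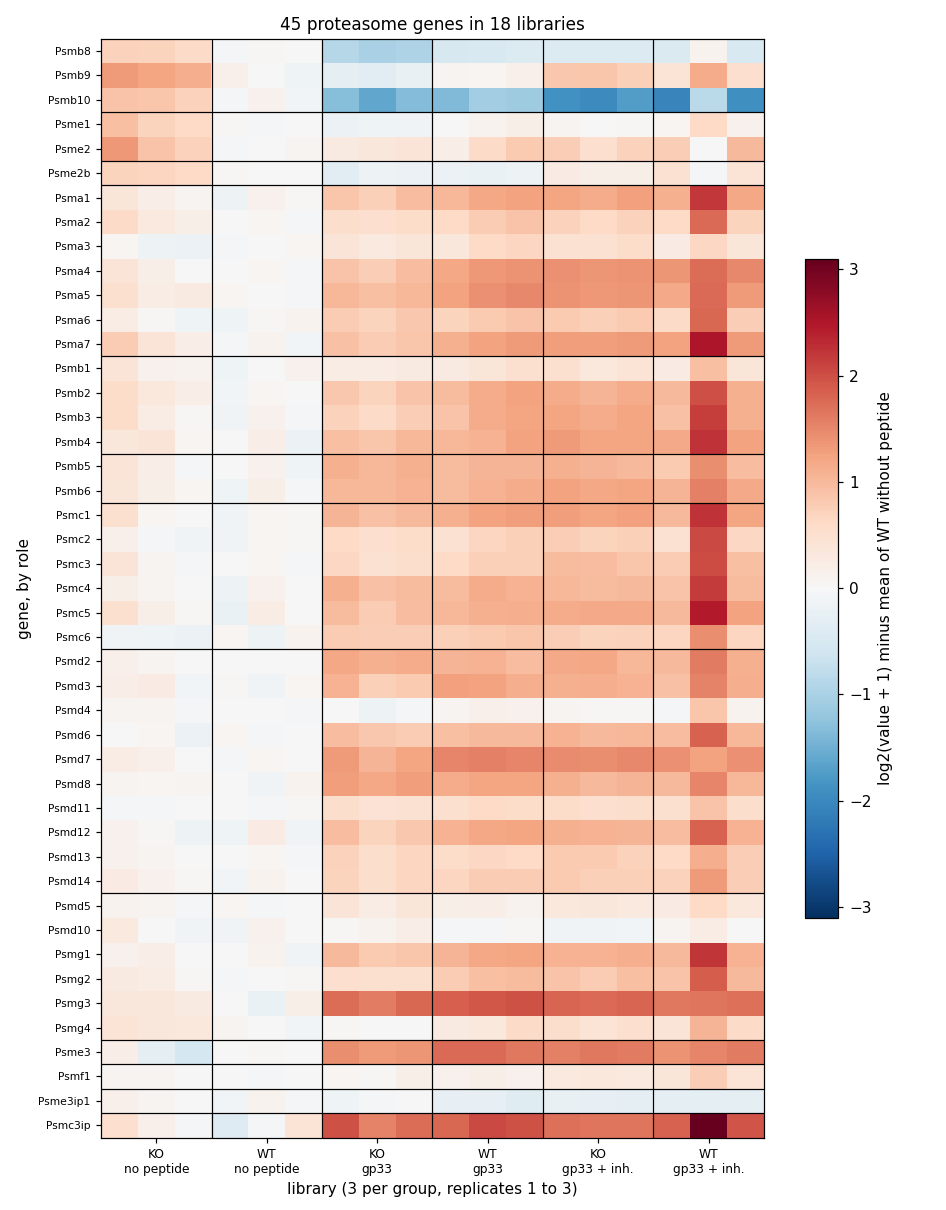
Difference of log2(value + 1) from the mean of WT without peptide (colour scale, red higher, blue lower) for the 45 tested members (rows, grouped by role) in the 18 libraries (columns, 3 per group). Most constitutive subunits are red with gp33 in both genotypes, Psmb8 and Psmb10 are blue there, and replicate 2 of the last group differs from its neighbours in most rows.

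Irf1 fell with gp33 as well, and was called lower in both genotypes (-2.58 in KO-labelled libraries and -1.36 in WT). Of the 9 transcription factors, 4 were called higher and 5 lower in KO-labelled libraries, and 2 higher and 5 lower in WT. Nfe2l1, which drives constitutive proteasome genes when proteasome activity is short, was called higher in KO-labelled libraries (0.55) and not in WT (0.22). Of the 13 peptide-loading genes, 3 were called higher and 7 lower in KO-labelled libraries, and 6 and 6 in WT. Of all genes, 41.1% were higher and 27.3% lower in KO-labelled libraries and 42.1% and 31.6% in WT. H2-K1 was at -2.12 and B2m at -2.20 in KO-labelled libraries and at -1.72 and -1.52 in WT.

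Genes of proteasome-associated proteins went both ways with gp33. Of 16 tested, 10 were called higher and 3 lower in KO-labelled libraries, against 41.1% and 27.3% of all genes. In WT 9 were called higher and 5 lower, against 42.1% and 31.6%. These counts are too small to be read as a difference from those shares. Pomp, the maturation protein of the 20S core, was at 17.7 to 19.96 with gp33 in KO-labelled libraries and 18.8 to 22.8 in WT, against 8.94 to 12.8 and 6.46 to 8.09 without peptide. Its log2 fold change was 0.78 in KO-labelled libraries and 1.43 in WT. The cap-bound deubiquitinases Uchl5 (1.12 and 1.21) and Usp14 (0.66 and 0.50) and the ubiquitin receptor Adrm1 (0.46 and 0.64) were called higher in both. Of 5 genes for ubiquitin and its activating enzyme, 2 were called higher and 1 lower in KO-labelled libraries, and 2 and 2 in WT.

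The other cell markers moved with stimulation too. B cell markers summed to 59.4 to 82.0 with gp33 in KO-labelled libraries and 75.3 to 77.1 in WT, with 8 of 8 called lower in each genotype, against at least 403 in any library without peptide. Myeloid markers summed to 13.6 to 29.5 in KO-labelled libraries and 7.81 to 9.71 in WT. Of the 6 tested, 4 were called lower and 1 higher in KO-labelled libraries, and 1 and 1 in WT. The higher one was Batf3, which activated T cells also express. It made up 7.16 to 10.9 of the myeloid sums in KO-labelled libraries and 6.51 to 7.42 in WT. The CD8 T cell markers were lower as well, 6 of 6 in each genotype, with sums of 231 to 235 in KO-labelled libraries and 242 to 252 in WT. NK markers, 2 of 2 called lower in each genotype, summed to 1.57 to 2.10 in KO-labelled libraries and 0.141 to 0.545 in WT. Erythroid markers summed to 0.137 to 0.894 in KO-labelled libraries and to at most 0.445 in WT. Their part in the proteasome results was not tested.

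The response to gp33 differed between the genotypes as labelled, most at the interferon-inducible genes. This difference, the response in KO-labelled libraries minus that in WT, was called for all 5 of them, always lower, with a median of -1.14. Among the 29 constitutive subunits 3 were called lower and 0 higher, with a median of -0.30. Over the 45 members 11 were called lower and 0 higher, against 9.6% lower and 15.7% higher of all genes tested, whose median was 0.00. The comparison shares its no-peptide libraries with the genotype difference without peptide, so these values are not independent of it. Without the WT inhibitor library that stands apart, 20 members were called lower, 10 of them constitutive, against 37.8% of all genes called in either direction.

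Psmb9 had the largest difference in response, -1.62 (SE 0.21, adjusted p = 6.97e-05). Psme2 followed at -1.18 (SE 0.31, adjusted p = 0.0129), Psmb8 at -1.14 (SE 0.16, adjusted p = 0.000185), Psmb10 at -1.06 (SE 0.32, adjusted p = 0.0268) and Psme1 at -0.98 (SE 0.18, adjusted p = 0.00115). The Psmb10 call ended when any of 7 libraries was left out (adjusted p of 0.0502 to 0.0693), while those of Psmb8, Psmb9, Psme1 and Psme2 held under each alternative tried. The called constitutive subunits were the alpha genes Psma4 (-0.64) and Psma5 (-0.72) and the lid gene Psmd7 (-0.44). Psme2b (-0.71) and the chaperones Psmg3 (-0.54) and Psmg4 (-0.76) made up the rest. Under quantile normalization the calls of Psme2b (adjusted p = 0.408) and Psmd7 (0.0517) ended. Psmg4 was lower with gp33 in KO-labelled libraries (-0.37) and higher in WT (0.40). The former call ended without any of 3 libraries (adjusted p of 0.0507 to 0.0647) and with protein-coding rescaling (0.0786). The latter ended without 1 library (0.0745). Irf1 differed in response in the same direction as the called members, by -1.22. Of the 13 peptide-loading genes, 1 was called higher and 7 lower for this difference, Tapbp at -0.88 and Tap1 at -0.65 among the lower.

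**Figure D3:**
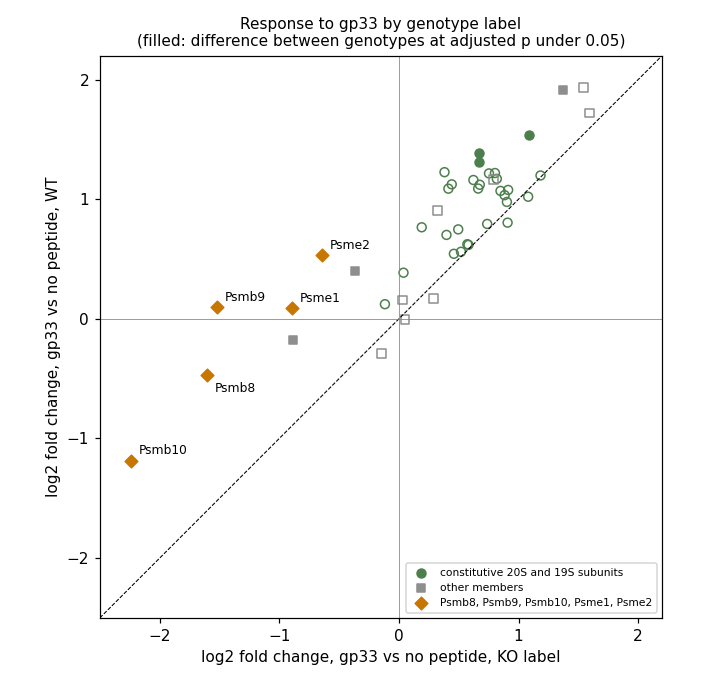
Log2 fold change of gp33 over no peptide in KO-labelled libraries (horizontal axis) and in WT (vertical axis) for the 45 tested members; filled marks were called for the difference between the 2 responses and the dashed line marks equal responses. The 5 interferon-inducible genes lie above the line by 0.98 to 1.62, and the constitutive subunits lie mostly in the upper right, at or above it.

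With gp33 present, 1 of the 5 interferon-inducible genes was called between the genotypes. The KO-labelled libraries had 1 member called higher than WT and 5 lower, against 14.9% higher and 9.09% lower of all genes tested. Of the interferon-inducible genes only Psmb8 was called, at -0.48 (SE 0.12, adjusted p = 0.00723), with all 3 KO-labelled libraries below all 3 WT libraries. Psmb9 was at -0.39 (adjusted p = 0.0665), Psmb10 at -0.24, Psme1 at -0.23 and Psme2 at -0.19. The direction of Psmb8 was thus the opposite of that without peptide. The constitutive subunits called were Psma4 (-0.44), Psma5 (-0.38) and Psmd7 (-0.33), and Psmg4 was at -0.39.

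Psma4 was at 17.2, 15.6 and 18.2 in KO-labelled libraries, against 21.5, 24.1 and 24.7 in WT with gp33, and Psma5 at 3.51, 3.24 and 3.49 against 4.27, 4.87 and 5.18. The groups did not overlap in either alpha gene. Psme3ip1, the Psme3 partner, was the member called higher, at 0.23. The Psma5 call ended without any of 5 libraries (adjusted p up to 0.126) and with the replicate number as a block (0.0522). The Psmg4 call ended without any of 12 libraries (up to 0.191), with that block and with no filter (0.0584 to 0.0644). The Psme3ip1 call ended without any of 6 libraries (up to 0.147) and under quantile normalization (0.217), and the Psmd7 call without 1 library (0.0634). Without the WT inhibitor library that stands apart, 16 members were called lower and 1 higher, Psmb9 and Psme1 among the lower ones, against 35.6% of all genes in either direction. The fold changes were the same in that fit, and the SE of Psmb9 was 0.07 against 0.14.

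**Figure D4:**
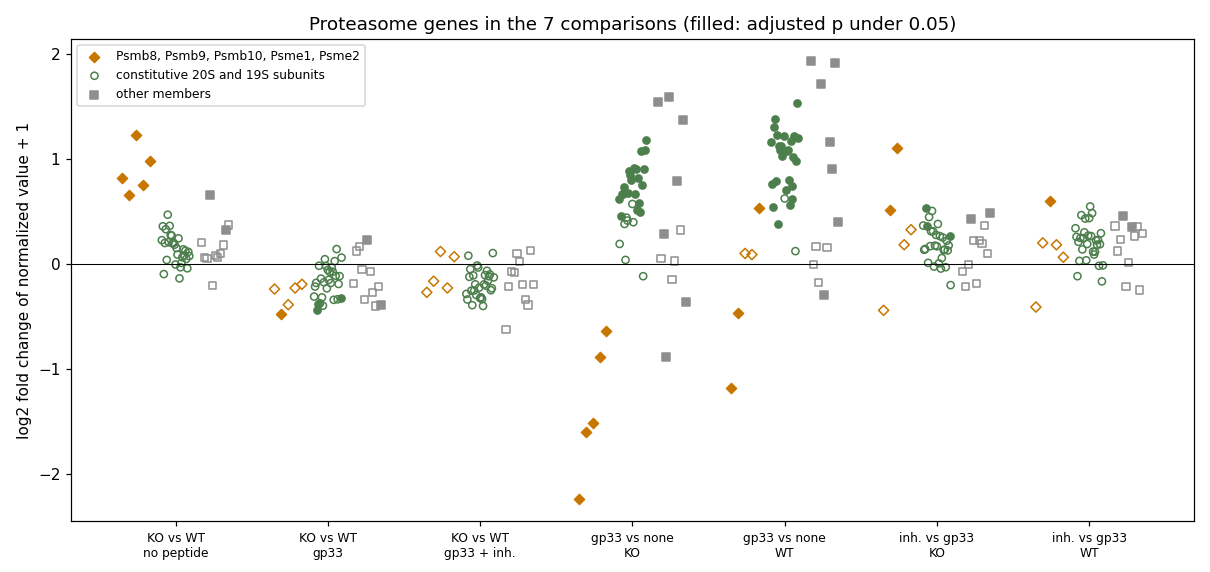
Log2 fold change of log2(value + 1) for the 45 tested members in the 7 comparisons of 2 groups (horizontal axis), with the interferon-inducible genes as diamonds, constitutive subunits as circles and other members as squares; filled marks have an adjusted p under 0.05. The diamonds lie above the circles without peptide (0.66 to 1.23) and below them for gp33 in KO-labelled libraries (-2.24 to -0.64).

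With IC87114 added to gp33, Psmb8 and Psmb9 were higher in KO-labelled libraries. There, 7 members were called higher with the inhibitor than with gp33 alone and 0 lower, against 9.17% higher and 19.3% lower of all genes tested. Psmb9 was at 62.3, 63.6 and 58.7 with the inhibitor, against 27.7, 27.5 and 29.1 with gp33 alone, a log2 fold change of 1.10 (SE 0.14, adjusted p = 5.83e-05). Psmb8 was at 165.3, 165.0 and 165.3, against 119.9, 111 and 114 (0.52, SE 0.12, adjusted p = 0.00371). In both genes the libraries with the inhibitor lay above those with gp33 alone and below those without peptide. Psme1 at 0.18, Psme2 at 0.33 and Psmb10 at -0.44 were not called.

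The other calls in KO-labelled libraries were Psma4 (0.53), Psma5 (0.36), Psmd7 (0.26), Psme2b (0.43) and Psmg4 (0.49). The Psma5 call ended without any of 6 libraries, with the replicate number as a block and with protein-coding rescaling (adjusted p of 0.0574 to 0.0635). The Psmd7 call ended without any of 5 libraries and under both rescaling and quantile normalization, and the Psme2b call under quantile normalization (0.541). Psmb5 was unlike Psmb8, at 61.2, 59.7 and 56.9 with the inhibitor (log2 fold change -0.03, adjusted p = 0.918). Without the WT inhibitor library that stands apart, 15 members were called higher and 3 lower, Psmb10 among the lower ones (adjusted p = 0.00402), against 39.5% of all genes in either direction.

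In WT, 3 members were called higher with the inhibitor and 0 lower, against 3.31% higher and 5.15% lower of all genes tested. Psmb9 was at 46.5, 78.1 and 49.7 with the inhibitor, against 36.5, 36.1 and 38.7 with gp33 alone (log2 fold change 0.60, SE 0.14, adjusted p = 0.02). The middle value is the library that stands apart, and without it the fold change was 0.37 (adjusted p = 0.0125). The call ended without WT replicate 1 or 2 of the gp33 group (adjusted p of 0.0719 to 0.0767) and with only the libraries compared in the fit (0.22). The other calls were Psme2b at 0.46, which ended with only the libraries compared (0.199), and the inhibitor gene Psmf1 at 0.35. The Psmf1 call ended without any of 3 libraries, with the library letter as a block (0.0543) and with only the libraries compared (0.219). Psmb10 was at 10.9, 26.4 and 12 with the inhibitor, against 17.8, 22.3 and 21.8, and was called lower once replicate 2 was left out (-0.79, adjusted p = 0.000691, against -0.41 with it). The median over the 29 constitutive subunits was 0.22 with that library and -0.07 without it, and 0 were called either way by limma, with 2 higher at an unadjusted p under 0.05 with that library.

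The genotypes with the inhibitor present gave no calls, with 0 of 45 members called by limma and 4 lower at an unadjusted p under 0.05, against 2.01% higher and 2.61% lower called over all genes. Without the library that stands apart, Psmb9 was called higher in KO-labelled libraries (0.35, adjusted p = 0.0282) and Psme2b lower (-0.24, adjusted p = 0.00989), with 4.21% of all genes called in either direction. Psmb9 was then at 58.7 to 63.6 in KO-labelled libraries and at 46.5 and 49.7 in WT. The difference between the genotypes in the response to the inhibitor was called for 1 member, Psmd7 (0.43, SE 0.12, adjusted p = 0.0333), against 3.27% higher and 6.47% lower of all genes tested. This call ended with the replicate number or the library letter as a block and under quantile normalization (adjusted p of 0.0519 to 0.0812), and without any of 8 libraries (0.0576 to 0.093). Without that library it was called for 4 members, Psmb9 (0.74, adjusted p = 0.000751), Psmb8 (0.51, adjusted p = 0.000371), Psma5 (0.50, adjusted p = 0.015) and Psmd7 (0.37, adjusted p = 0.0343), against 14.4% in either direction. Myeloid markers summed to 14.7 to 51.3 with the inhibitor in KO-labelled libraries and 0.914 to 11.6 in WT. The 11.6 was the library that stands apart, with the others at 0.914 and 0.974. Batf3, a part of this sum, was at 5.39 to 7.50 in KO-labelled libraries and 0.564 to 0.663 in WT. B cell markers summed to 69.3 to 78.7 in KO-labelled libraries and 78.7 to 107 in WT. Their part in these results was not tested.

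Set against their constitutive partners within each library, the immunoproteasome genes stayed below their no-peptide level wherever gp33 was present. Relative to WT without peptide, the log2 ratio of Psmb8 to Psmb5 was -2.06 ± 0.03 (SD, n = 3) with gp33 in KO-labelled libraries and -1.53 ± 0.03 in WT. With the inhibitor it was -1.51 ± 0.05 in KO-labelled libraries and -1.36 ± 0.08 in WT. The corresponding ratio of Psmb9 to Psmb6 was -1.36 ± 0.02 with gp33 in KO-labelled libraries and -0.98 ± 0.07 in WT, and with the inhibitor -0.41 ± 0.08 and -0.56 ± 0.15. Including the WT inhibitor library that stands apart, that group spanned -1.45 to -1.29 in the first ratio and -0.66 to -0.39 in the second.

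Many members have near-identical copies that the authors' counting could have split reads with. With at least 90% identity over 200 or more bases of GENCODE M21 transcripts, 19 of the 50 members had a copy among the genes of the table. Of 34 copies, 29 are processed pseudogenes, such as Gm13835 of Psma3 (100% over 685 bases) and Gm3375 of Psmb5 (98.9% over 796 bases). Psmb8, Psmb9 and Psmb10 had no copy at this threshold, whereas Psme2 and Psme2b were 99.4% identical over 794 bases. In 16 of the 19 members, a copy had a higher median value over the 18 libraries than the member itself. Gm13835 was at 1497 and Psma3 at 2.85, and Gm3375 was at 398 and Psmb5 at 56.7. The values of members with copies are therefore uncertain.

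The copies were tested in the same fit. Of 22 tested copies of 13 constitutive subunits, 15 were called higher with gp33 and 0 lower in KO-labelled libraries, with a median of 0.81, and 19 and 0 in WT, with a median of 0.84. Without peptide, Gm7776 and Gm46496, copies of Psme1, were higher in KO-labelled libraries by 0.63 and 0.65 and were called. Both were called lower with gp33 in KO-labelled libraries, at -0.98 and -1.01. In WT both were at -0.19 with gp33, and Gm46496 was called. Of the 22 copies of constitutive subunits, 2 were called higher in KO-labelled libraries without peptide and 0 lower. They were Gm12989 of Psma5 and Gm6474 of Psma2, each at 0.29. Reads of a copy and of its parent gene cannot be told apart here.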

How the data were processed

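RNA of 18 libraries, 3 in each of 6 groups taken from the sample titles, was analysed from 1 deposited table. Per its name and header, the authors normalized the values in Partek, with no method named. The deposited values behave as log2 of a value plus 1, with base and offset not stated. They are not counts, so depth is unknown and no counting interval was made. Fold changes assume base 2, while the tests do not depend on the base. The submitters' processing notes name GRCm38 and GRCm39 without a role, and the aligner and counter are not given in the sources used here. Protocol text gives gp33 for every culture, but titles and treatment fields, which were followed, give it for the stimulated groups.

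The fit took the 10257 genes that reached 1 in 3 or more libraries. It had 6 group means on the log2(value + 1) scale (R 4.3.3, limma 3.58.1 with trend and robust moderation, statmod 1.5.0, 12 residual degrees of freedom), with 2-sided tests, 9 contrasts and Benjamini-Hochberg adjustment over all genes tested within each contrast. The offset lowers the fold changes of genes with low values. The fit was tested on simulated data. Copies were found with BLAST 2.17.0+ among GENCODE M21 transcripts, and promoter windows come from RefSeq, GRCm38.p6. The genes named are the check gene Pik3ip1, every member, per-library values for the 5 interferon-inducible members and Psmb5, Psmb6 and Psmb7 where tested, the 3 highest and 3 lowest called members of a contrast, and the list genes with the smallest p. Some other list genes and copies were named after their values were seen. Members and lists were chosen with earlier results of these data known. Alternatives were an offset of 0.1, no filter or a filter at 5, rescaling to protein-coding genes, quantile normalization, fitting only the libraries compared, no trend or robust moderation, replicate blocks, and leaving out each library.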

Additional observations from a re-analysis of the deposited data

Results flagged for a closer look

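The difference between the genotypes as labelled in the response to gp33, tested as an interaction in limma, was called for 11 members, each more negative in KO-labelled libraries. They were Psmb9 (-1.62), Psme2 (-1.18), Psmb8 (-1.14), Psmb10 (-1.06), Psme1 (-0.98), Psmg4 (-0.76), Psma5 (-0.72), Psme2b (-0.71), Psma4 (-0.64), Psmg3 (-0.54) and Psmd7 (-0.44), on the log2 scale. The difference in the response to the inhibitor was called for Psmd7 (0.43). Pik3ip1 was higher in KO-labelled libraries in every condition, for a reason that was not tested. These directions therefore go by the label, and would turn round if the labels had been swapped. The values of the 2 differences also share their gp33 libraries.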

How the results depend on the processing

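Of the 45 members, the number called moved by over 1.5 times under few alternatives. With only the libraries compared in the fit it was 17 for genotype with gp33, 26 (22 higher, 4 lower) for the inhibitor in KO-labelled libraries, 0 for the inhibitor in WT, 17 for the genotype difference in the gp33 response and 3 for that in the inhibitor response. For that last contrast it was 2 with protein-coding rescaling and 0 with quantile normalization, with the replicate number as a block and with the library letter as a block. For genotype with the inhibitor it was 1 of 50 with no filter. Counts over all genes moved with the fit too. With only the libraries compared, 3968 of the 10257 genes tested were called for genotype with gp33, against 2457 in the main fit. For the difference in the inhibitor response 1397 were called, against 999. With no filter, 533 of 23208 genes were called for genotype with the inhibitor, against 474 in the main fit. The median of the 5 interferon-inducible genes minus that of the constitutive subunits was -2.40 (offset of 0.1) and -2.39 (quantile) against -2.18 for gp33 in KO-labelled libraries, -1.17 (quantile) against -0.98 in WT, and -0.69 (quantile) against -0.83 for their difference. Psmb9 and Psme1 turned to -0.33 and -0.39 for gp33 in WT under quantile normalization. The cause was not tested.

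Leaving out each library in turn gave 5 to 12 members called for genotype without peptide, 2 to 17 with gp33, 0 to 2 with inhibitor, 31 to 39 for gp33 in KO-labelled libraries, 34 to 41 in WT, 5 to 18 for the inhibitor in KO-labelled libraries, 1 to 4 in WT, 10 to 20 for the difference in the gp33 response and 0 to 4 for that in the inhibitor response. The highest count of each came without WT inhibitor replicate 2, shared for the inhibitor in WT with replicate 1. Over all 10257 genes tested, these fits called 1003 to 2101 for genotype without peptide, 1582 to 3647 with gp33 and 261 to 544 with the inhibitor. For genotype with gp33 the count of members was 2 without KO replicate 2 of the gp33 group. It was 3 without KO replicate 3 or WT replicate 2 or 3 of that condition. For the inhibitor in WT it was 1 without WT gp33 replicate 1 or 2. For the difference in the inhibitor response it was 0 without KO gp33 replicate 2 or 3, any WT gp33 or any KO inhibitor library, and 2 without KO replicate 1 or WT replicate 2 of the cultures with no peptide. The same median difference ran from 0.12 to 0.43 for the difference in the inhibitor response. Within a genotype, same-numbered libraries also share a letter in their names, which the main fit does not use. Their deviations from the group means correlated at -0.03 to 0.22, with the own number highest in 11 of 18 comparisons. Between genotypes, same-numbered libraries correlated at -0.13 to -0.00014. Whether same-lettered libraries are paired cannot be told from these weak correlations. Apart from the counts above, the replicate block moved no count of members by over 1.5 times. With 3 libraries a group and unknown depth, genes near a value of 1 are the least certain.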
